A study of Caenorhabditis elegans with 6 samples.

Results

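The Hedgehog-related and patched-related genes of *C. elegans* were chosen by name: every gene whose symbol starts with wrt- (warthog), grd- (groundhog), grl- (ground-like), hog- or qua- was taken as ligand-like, and every gene whose symbol starts with ptr- or ptc- (patched-related and patched) as receptor-like. This gave 85 of the 46739 genes of the count table, 59 of them ligand-like (10 *wrt*, 16 *grd*, 31 *grl*, 1 *hog* and 1 *qua*) and 26 receptor-like (24 *ptr* and 2 *ptc*). RNA-Seq had been performed on lysates of many pooled whole worms of the wild-type strain Bristol N2, in 3 libraries labelled Y37A1B.5 RNAi and 3 libraries of the empty vector L4440. The question was which transcripts differ after knockdown of *Y37A1B.5*, an ortholog of a human selenium-binding protein. Worms of both groups had been fed RNAi bacteria from young adulthood for 5 days at 20 °C, so that the groups share strain, age and temperature and differ in the plasmid the bacteria carry. A lysate pools all tissues of the adults with any embryos inside them, and RNAi by feeding is known to reach neurons poorly.

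In flies and vertebrates, Hedgehog is a secreted, cholesterol-modified protein that binds Patched, a membrane protein with a sterol-sensing domain, and so releases Smoothened. *C. elegans* has neither Smoothened nor a typical Hedgehog, but a large family of secreted proteins with a Wart, Ground or Ground-like domain, some of them joined to the self-cleaving Hog domain that Hedgehog also has, and a large family of Patched-like proteins. These worm genes are known for roles in molting, in the cuticle and precuticle matrix, in glia and in cytokinesis.

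A library held 34403223 to 46733527 counts on genes, and 15003 genes had enough counts for edgeR's quasi-likelihood test (two-sided, Benjamini-Hochberg adjustment over all of them, threshold 0.05). *Y37A1B.5* itself had 4833, 3519 and 4189 counts in the libraries labelled Y37A1B.5 RNAi and 1126, 1295 and 792 counts in the L4440 libraries. Knockdown would lower this count, so the label and the count disagree, and "labelled" is kept in the name of these libraries throughout. These counts do not separate mRNA of the worm from RNA made from the RNAi plasmid. Levels are given as CPM, the counts scaled to library size after TMM normalization. In whole worms, fewer cells of a type and less RNA per cell cannot be told apart.

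All 85 members had at least 1 count, but most ligand-like genes were at low levels in these adults. Per length of exon, the median over all 6 libraries was 0.438 CPM per kb for the ligand-like genes, 2.19 CPM per kb for the receptor-like genes and 7.97 CPM per kb for all genes tested. Of the ligand-like genes, 18 of 59 reached 1 CPM per kb and 12 lay under 0.1 CPM per kb. Of the receptor-like genes, 19 of 26 reached 1 CPM per kb and 1 lay under 0.1 CPM per kb. The filter on low counts left 39 ligand-like and 25 receptor-like genes to test. The 21 genes left out were *wrt-7*, 4 *grd* genes, 15 *grl* genes and *ptr-9*. They had between 3 and 53 counts over all 6 libraries, too few to show a difference at this depth.

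**Figure D1:**
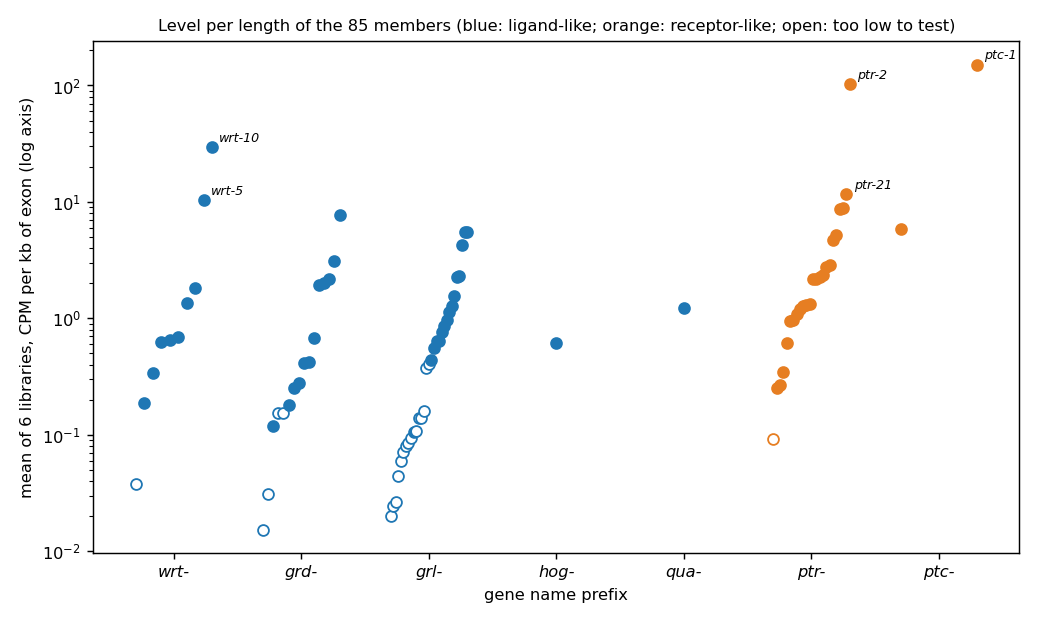
Level of each member per length of exon by gene name prefix, as the mean of 6 libraries in CPM per kb on a log axis; blue points are ligand-like, orange points receptor-like, and open points had too few counts to be tested. *ptc-1* (151 CPM per kb) and *ptr-2* (102 CPM per kb) stand above all other members, and *wrt-10* (29.6 CPM per kb) is the highest ligand-like gene.

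A few genes made up much of each class. *ptc-1*, a patched gene needed for cytokinesis in the germline, and *ptr-2*, a patched-related gene also known for roles in cytokinesis and the eggshell's permeability barrier, together held 80.9% to 85% of the summed CPM of the receptor-like genes in the labelled libraries and 79.8% to 82.9% in the L4440 libraries. *wrt-10* held 27.3% to 28.8% of the summed CPM of the ligand-like genes in the labelled libraries and 33.6% to 36.4% in the L4440 libraries. After these, the highest levels per length were those of *ptr-21* (11.6 CPM per kb), *wrt-5* (10.4 CPM per kb) and *ptr-24* (8.95 CPM per kb). The most abundant genes of the other prefixes were *grd-5* at 7.80 and *grl-10* at 5.51 CPM per kb, with *qua-1* at 1.22 and *hog-1* at 0.613 CPM per kb.

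Of the 64 members tested, 8 were called lower and 1 higher in the libraries labelled Y37A1B.5 RNAi. The share of members called was 14.1%, next to 13.7% of all genes tested, and the share called lower was 12.5%, next to 8.85% of all genes tested. Of all genes tested 4.81% were called higher. The members were thus called about as often as the genes at large, and their fold changes leaned to lower. The log2 fold change was below 0 for 52 of 64 members (81.2%), next to 54.1% of all genes tested, and its median was −0.38, next to −0.03 for all genes tested. The median of the members was −0.15 without L4440 replicate 2. At an unadjusted p under 0.05, 19 members were lower and 4 higher, next to 18.8% lower and 14.3% higher of all genes tested. With DESeq2, 9 members were called lower, next to 10.6% of the genes it tested. DESeq2 gave some of the 64 members, such as *grl-22*, no adjusted p, so the 9 are out of fewer than 64. With no filter on low counts all 85 members were tested and 12 were called lower, next to 7.82% of all genes in that fit. The number called lower depended on single libraries. Without L4440 replicate 2 it was 5, next to 3.27% of all genes tested, and without labelled replicate 3 it was 13, next to 10.6% of all genes tested.

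For the ligand-like genes the median log2 fold change was −0.42, with 33 of 39 below 0. Of these, 3 were called lower (*wrt-10*, *qua-1* and *grd-6*) and 1 higher (*grl-22*). For the receptor-like genes the median log2 fold change was −0.17, with 19 of 25 below 0, and 5 were called lower (*ptr-3*, *ptr-4*, *ptr-22*, *ptr-23* and *ptr-25*). No receptor-like gene was called higher, with 0 calls by edgeR, 0 by DESeq2 and 1 gene higher at an unadjusted p under 0.05. The share called lower was 7.69% of the ligand-like and 20.0% of the receptor-like genes, next to 8.85% of all genes tested. Without L4440 replicate 2 the shares came close to each other, with 3 of 39 ligand-like and 2 of 25 receptor-like genes called lower. In that fit 3.27% of all genes tested were called lower. The ligand-like fold changes also had larger errors, with a median standard error of 0.25 on the log2 scale at a median of 44.3 counts per library, against 0.13 at 244 counts per library for the receptor-like genes. The difference between both classes was not tested, because the members of a class are not replicates.

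**Figure D2:**
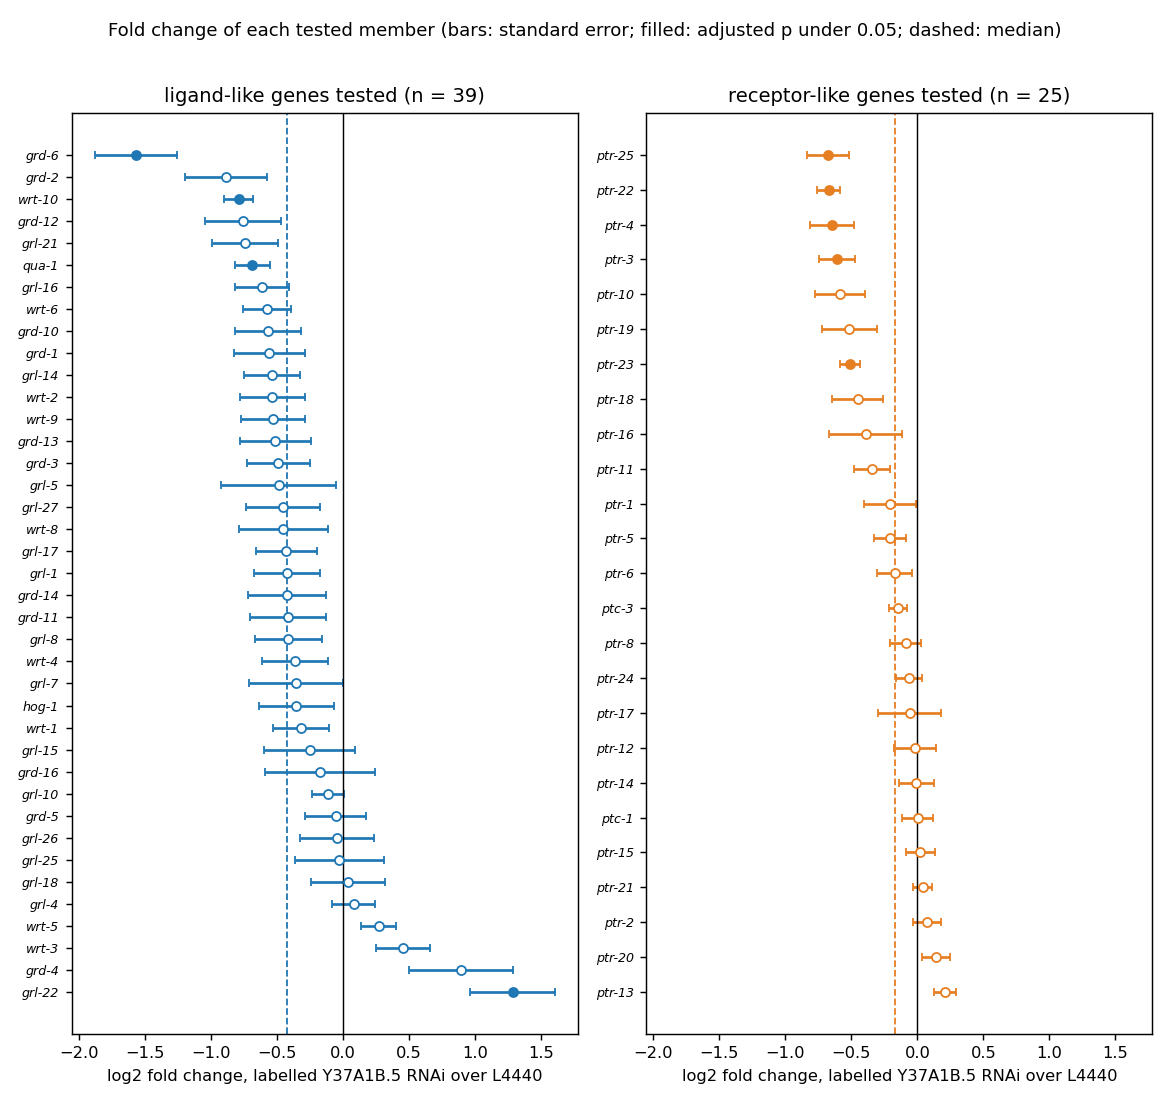
Log2 fold change of each tested member, libraries labelled Y37A1B.5 RNAi over L4440, with its standard error; filled points passed an adjusted p of 0.05, and dashed lines mark the medians of the 39 ligand-like genes (−0.42) and the 25 receptor-like genes (−0.17). Most ligand-like genes lie below 0, with *grd-6* (−1.57) and *grl-22* (1.29) at the ends, and the receptor-like genes span −0.68 to 0.21.

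Among the warthog genes, *wrt-10* (WBGene00006956, chromosome II, 7533262 to 7534563, minus strand, WBcel235), the most abundant ligand-like member, had 21.5, 24.0 and 27.8 CPM in the libraries labelled Y37A1B.5 RNAi and 38.6, 47.8 and 40.6 CPM in the L4440 libraries. Every labelled library lay below every L4440 library. The log2 fold change was −0.79 (standard error 0.11, edgeR adjusted p = 0.00197). Its neighbour *wrt-1* (chromosome II, 7530996 to 7533246) lies 15 bp away on the opposite strand, and reads had been counted by strand. *wrt-1* had 2.84, 2.65 and 3.05 CPM in the labelled libraries and 3.38, 4.78 and 2.45 CPM in the L4440 libraries. These overlap, since L4440 replicate 3 was the lowest of all, and *wrt-1* was not called (log2 fold change −0.32, standard error 0.21, edgeR adjusted p = 0.322).

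The other warthog genes were not called. *wrt-5*, known for a role in growth and molting, had 7.83, 8.5 and 11.1 CPM in the labelled libraries and 7.38, 7.49 and 7.91 CPM in the L4440 libraries. Labelled replicate 3 was the highest and labelled replicate 1 lay within the L4440 values, and the gene was not called (log2 fold change 0.27, standard error 0.13, edgeR adjusted p = 0.181). *wrt-6* had the largest change among the uncalled warthog genes, with 0.887, 1.03 and 1.17 CPM in the labelled libraries, all below the 1.31, 1.66 and 1.65 CPM of the L4440 libraries (log2 fold change −0.58, standard error 0.18, edgeR adjusted p = 0.0610).

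*qua-1* and *hog-1* are the only members of their prefixes. *qua-1* (WBGene00004264, chromosome II, 8198803 to 8204004, plus strand), known to be needed for molting, had 3.78, 3.35 and 3.72 CPM in the labelled libraries and 5.10, 6.72 and 5.62 CPM in the L4440 libraries. The groups did not overlap (log2 fold change −0.69, standard error 0.13, edgeR adjusted p = 0.00927). *hog-1* had 0.384, 0.405 and 0.720 CPM in the labelled libraries and 0.700, 0.663 and 0.579 CPM in the L4440 libraries. Labelled replicate 3 was the highest of all 6, so that the groups overlapped, and *hog-1* was not called (log2 fold change −0.35, standard error 0.28, edgeR adjusted p = 0.411).

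Among the groundhog genes, *grd-6* (WBGene00001695, chromosome V, 9221866 to 9224354, plus strand) had the lowest fold change of all members tested. It had 15, 35 and 31 counts in the labelled libraries and 54, 107 and 55 counts in the L4440 libraries, or 0.443, 0.787 and 0.770 CPM against 1.58, 2.96 and 1.52 CPM. The groups did not overlap, and L4440 replicate 2 stood above the other L4440 libraries. The log2 fold change was −1.57 (standard error 0.31, edgeR adjusted p = 0.0111), and without L4440 replicate 2 it was −1.18 (adjusted p = 0.0302). *grd-5*, the most abundant groundhog gene, had 3.04, 4.11 and 4.84 CPM in the labelled libraries and 2.77, 5.33 and 4.41 CPM in the L4440 libraries. Both groups spread over the same range, and the log2 fold change was −0.06 (standard error 0.23, edgeR adjusted p = 0.888). *grd-4* had 0.266, 0.360 and 0.621 CPM in the labelled libraries and 0.233, 0.166 and 0.276 CPM in the L4440 libraries, which overlap, and was not called (log2 fold change 0.89, standard error 0.39, edgeR adjusted p = 0.144).

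Among the ground-like genes, *grl-22* (WBGene00001731, chromosome III, 5413137 to 5414011, minus strand) was called higher. It had 17, 40 and 31 counts in the labelled libraries and 14, 10 and 8 counts in the L4440 libraries, or 0.503, 0.899 and 0.770 CPM against 0.408, 0.276 and 0.220 CPM. The groups did not overlap, but replicate 1 of both groups lay close together. The log2 fold change was 1.29 (standard error 0.32, edgeR adjusted p = 0.0278), and the call was lost, with a log2 fold change that stayed high, without L4440 replicate 2 (1.23, adjusted p = 0.105), L4440 replicate 3 (1.10, adjusted p = 0.0745) or labelled replicate 2 (1.09, adjusted p = 0.0826). *grl-10*, the most abundant ground-like gene, had 4.88, 4.77 and 5.78 CPM in the labelled libraries and 5.60, 5.97 and 5.13 CPM in the L4440 libraries. These overlap (log2 fold change −0.11, standard error 0.12, edgeR adjusted p = 0.535). *grl-21* had 0.621, 1.33 and 1.42 CPM in the labelled libraries, all below the 1.90, 2.13 and 1.71 CPM of the L4440 libraries, and was not called (log2 fold change −0.74, standard error 0.25, edgeR adjusted p = 0.0739).

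Among the patched-related genes, *ptr-22* (WBGene00004236, chromosome V, 18919221 to 18931379, minus strand) had the smallest adjusted p of all members. It had 9.73, 10.3 and 10.3 CPM in the labelled libraries and 15.6, 17.3 and 15.4 CPM in the L4440 libraries. The gap between groups was wide beside the spread within them, and the log2 fold change was −0.67 (standard error 0.088, edgeR adjusted p = 0.00139). *ptr-23* (WBGene00004237, chromosome I, 14906792 to 14913083, plus strand), known for a role in molting, had 25.5, 26.1 and 22.7 CPM in the labelled libraries and 34.9, 35.7 and 35.2 CPM in the L4440 libraries. These did not overlap either (log2 fold change −0.51, standard error 0.076, edgeR adjusted p = 0.00262). *ptr-22*, *ptr-23*, *wrt-10*, *qua-1* and *grd-6* kept their calls under each of 13 alternative settings. The log2 fold change moved by over 1.5 times in 2 of these genes when the trend with exon length was removed, to −0.29 for *ptr-23* and −0.43 for *qua-1*.

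The other 3 patched-related genes called lower lost the call, but not the direction, when single libraries were left out. *ptr-3* (WBGene00004218, chromosome II, 362484 to 367555, minus strand) had 5.38, 5.49 and 5.36 CPM in the labelled libraries and 7.79, 9.95 and 7.0 CPM in the L4440 libraries (log2 fold change −0.61, standard error 0.13, edgeR adjusted p = 0.0177). *ptr-25* (WBGene00009653, chromosome III, 10488124 to 10500239, plus strand) had 3.49, 3.73 and 2.76 CPM in the labelled libraries and 4.87, 6.38 and 4.71 CPM in the L4440 libraries (log2 fold change −0.68, standard error 0.16, edgeR adjusted p = 0.0226). In both genes the groups did not overlap and L4440 replicate 2 was the highest library. Without it the log2 fold change was −0.45 for *ptr-3* (edgeR adjusted p = 0.0601) and −0.53 for *ptr-25* (edgeR adjusted p = 0.0928), and the calls were lost. *ptr-4* (WBGene00004219, chromosome X, 6060758 to 6065986, minus strand), known for roles in molting and the precuticle matrix, had 5.71, 7.42 and 7.72 CPM in the labelled libraries and 8.49, 13.2 and 11.1 CPM in the L4440 libraries. The groups did not overlap, and the log2 fold change was −0.65 (standard error 0.17, edgeR adjusted p = 0.0304). The call was lost while the log2 fold change was −0.49 without L4440 replicate 2 (adjusted p = 0.123), −0.64 without L4440 replicate 3 (adjusted p = 0.0675), −0.52 without labelled replicate 1 (adjusted p = 0.0804) and −0.70 without labelled replicate 2 (adjusted p = 0.0525).

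**Figure D3:**
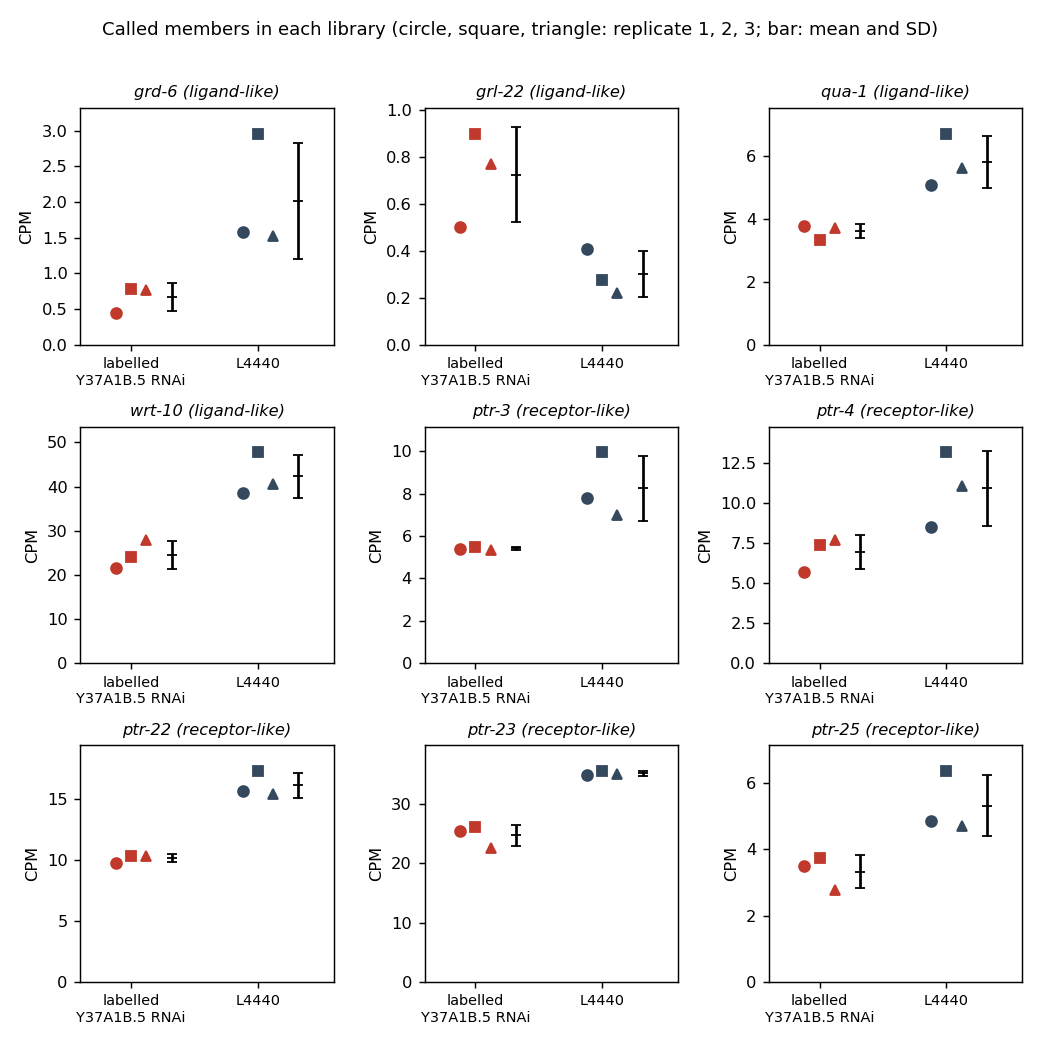
Level in CPM of the 9 called members in each library, libraries labelled Y37A1B.5 RNAi on the left and L4440 on the right of each panel; symbols mark replicates 1, 2 and 3, and the bar gives the mean and SD of 3 libraries. In all 9 panels the groups do not overlap, and *grl-22* is the gene with the labelled libraries above L4440. The genes shown were chosen by their calls in these same libraries, so the lack of overlap gives no separate support.

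The most abundant receptor-like genes were not called. *ptc-1* had 844, 826 and 627 CPM in the labelled libraries and 750, 724 and 820 CPM in the L4440 libraries (log2 fold change 0.002, standard error 0.12, edgeR adjusted p = 0.995). *ptr-2* had 337, 318 and 260 CPM in the labelled libraries and 290, 270 and 309 CPM in the L4440 libraries (log2 fold change 0.07, standard error 0.10, edgeR adjusted p = 0.653). In both genes labelled replicate 3 was the lowest and labelled replicates 1 and 2 were the highest libraries, and without labelled replicate 3 *ptr-2* was called higher (log2 fold change 0.18, adjusted p = 0.0450). The summed level of 11 oocyte and germline markers, with none of them at 0 in every library, moved alike, with 7670, 7670 and 5610 CPM in labelled replicates 1 to 3 and 7000, 6390 and 7340 CPM in L4440 replicates 1 to 3. Its part in these values was not tested. *ptc-3*, the other patched gene, had 24.7, 25.1 and 25 CPM in the labelled libraries and 26.8, 27.4 and 28.7 CPM in the L4440 libraries. These did not overlap, but the log2 fold change of −0.15 (standard error 0.069) was not called (edgeR adjusted p = 0.165).

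*ptr-10*, a gene known from glia, had the largest change among the uncalled patched-related genes, with 1.71, 2.14 and 2.98 CPM in the labelled libraries and 3.15, 3.79 and 3.36 CPM in the L4440 libraries. The groups did not overlap, and the log2 fold change was −0.58 (standard error 0.19, edgeR adjusted p = 0.0640). Without labelled replicate 3, the highest of its group, *ptr-10* was called (log2 fold change −0.82, adjusted p = 0.00979). *ptr-13* had the highest fold change of the receptor-like genes, with 20.1, 18 and 18.7 CPM in the labelled libraries, all above the 17, 15.9 and 16.1 CPM of the L4440 libraries (log2 fold change 0.21, standard error 0.081, edgeR adjusted p = 0.104). Over all 64 members, 18 were lower without overlap between groups, 9 in each class, next to 22.1% of all genes tested. *grl-22* and *ptr-13* were the 2 members higher without overlap, next to 18.4% of all genes tested.

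Summed over the class, the ligand-like genes had 74.9, 87.0 and 102 CPM in the labelled libraries and 107, 142 and 112 CPM in the L4440 libraries, which do not overlap. Without *wrt-10* the sum was 53.4, 63.0 and 74.1 CPM in the labelled libraries and 68.8, 94.7 and 71.0 CPM in the L4440 libraries, which overlap. The lack of overlap between the group sums thus depended on *wrt-10*. The mean sum without it was still lower, at 63.5 CPM in the labelled and 78.2 CPM in the L4440 libraries. Of the other 38 tested ligand-like genes, 32 had a log2 fold change below 0. The receptor-like genes summed to 1390, 1360 and 1100 CPM in the labelled libraries and 1280, 1250 and 1360 CPM in the L4440 libraries, which overlap. Without *ptc-1* and *ptr-2* the sum was 209, 213 and 210 CPM in the labelled libraries and 238, 252 and 234 CPM in the L4440 libraries. Here the groups did not overlap. With 3 libraries per group, an exact permutation test of such sums cannot go below a two-sided p of 0.1, and none was run.

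Libraries of one group also differed among themselves. L4440 replicate 2 was the highest of all 6 libraries for 24 of 39 ligand-like genes (61.5%) and 12 of 25 receptor-like genes (48.0%), next to 23.1% of all genes tested. Labelled replicate 1 was the lowest for 19 of 39 ligand-like genes (48.7%) and 8 of 25 receptor-like genes (32%), next to 17.3% of all genes tested. Relative to the L4440 mean, the median deviation of the ligand-like genes on the log2 scale (CPM plus 0.1) was −0.56, −0.36 and −0.28 in labelled replicates 1 to 3 and −0.09, 0.18 and −0.14 in L4440 replicates 1 to 3. For the receptor-like genes it was −0.19, −0.21 and −0.16 in the labelled libraries and −0.03, 0.08 and −0.03 in the L4440 libraries. The labelled libraries lay below the L4440 libraries in both classes. Without L4440 replicate 2, the median log2 fold change was −0.23 for the ligand-like and −0.10 for the receptor-like genes.

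**Figure D4:**
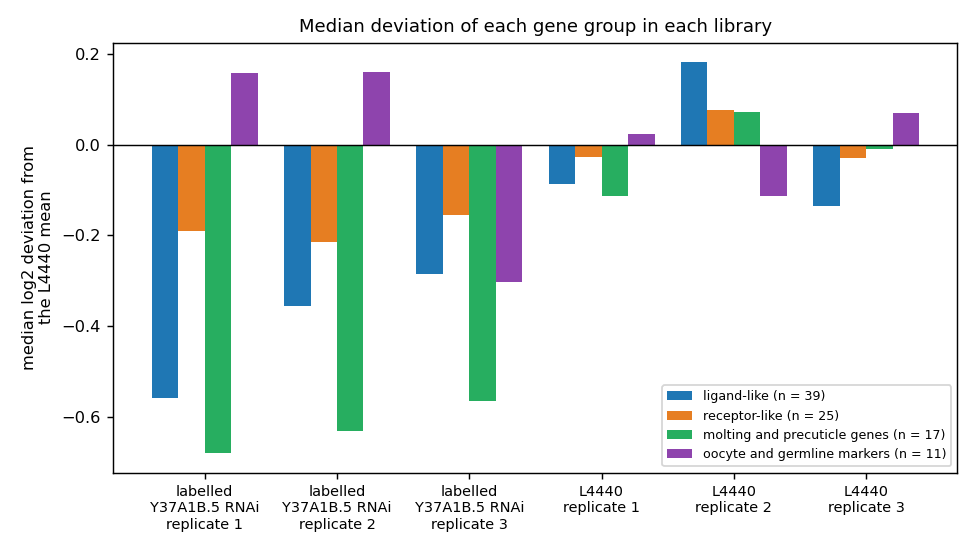
Median log2 deviation from the L4440 mean in each library for the tested ligand-like and receptor-like genes, the molting and precuticle genes and the oocyte and germline markers. The labelled libraries are below 0 for the ligand-like, receptor-like and molting genes and L4440 replicate 2 is above 0 for them, while the germline markers are below 0 in labelled replicate 3 (−0.30) and L4440 replicate 2 (−0.11).

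The classes also differed in the length of their exons, which the choice by name did not use. The tested receptor-like genes had a median exon length of 3000 bp and the tested ligand-like genes of 1190 bp, next to 1360 bp for all genes tested. When each library's trend with exon length over all genes was removed, the median log2 fold change was −0.39 for the ligand-like and 0.03 for the receptor-like genes, next to 0.05 for all genes tested. The receptor-like median thus changed its sign and the ligand-like median did not. In that fit 32 of 39 ligand-like genes (82.1%) and 11 of 25 receptor-like genes (44.0%) were below 0, next to 42.9% of all genes tested.

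The calls shifted with the length trend as well. With it removed, *wrt-10*, *qua-1*, *grd-6* and *grl-21* were called lower and *grl-22* higher among the ligand-like genes. Among the receptor-like genes *ptr-3*, *ptr-22*, *ptr-23* and *ptr-25* were called lower, and *ptr-4* was not (log2 fold change −0.44, edgeR adjusted p = 0.0765). The 4 receptor-like genes called higher in that fit were *ptc-1* (log2 fold change 0.31, edgeR adjusted p = 0.0183), *ptr-2* (0.25, adjusted p = 0.0455), *ptr-13* (0.44, adjusted p = 0.00841) and *ptr-21* (0.26, adjusted p = 0.0291). Of all genes tested, 19.5% were called in that fit, 7.84% lower and 11.6% higher.

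**Figure D5:**
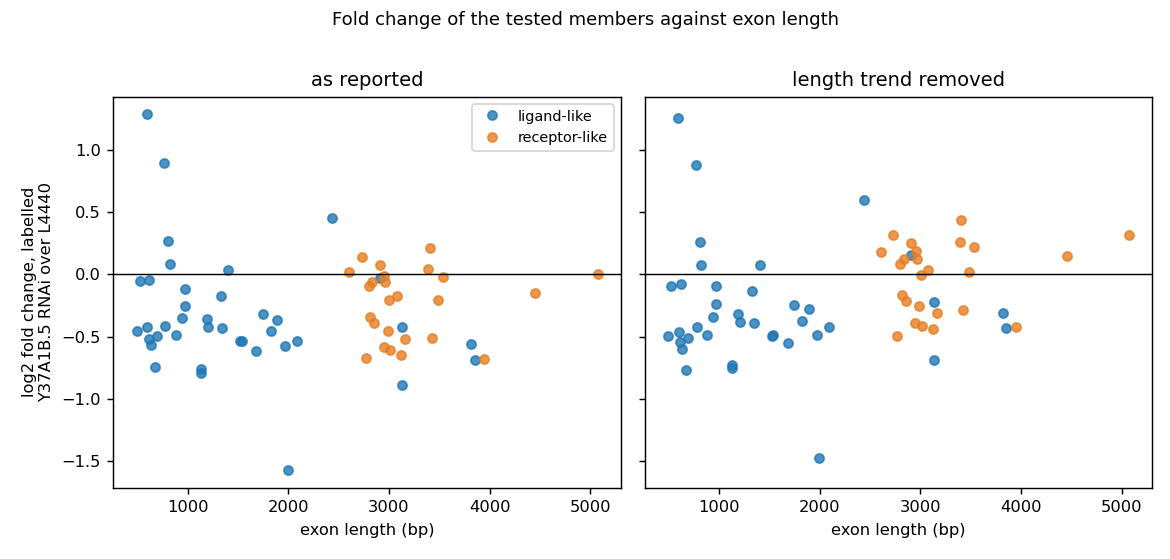
Log2 fold change of the 64 tested members, libraries labelled Y37A1B.5 RNAi over L4440, against exon length in bp, as reported (left) and with the length trend of each library removed (right); blue points are ligand-like and orange points receptor-like. The receptor-like genes lie mostly at the long end, and their median is −0.17 on the left and 0.03 on the right, while that of the ligand-like genes is −0.42 on the left and −0.39 on the right.

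In the genome, 28 of the 59 ligand-like genes lie on chromosome V, 12 on IV and 10 on X, whereas 8 of the 26 receptor-like genes lie on chromosome II and 7 on I. Within 10000 bp of each other there were 9 neighbouring pairs, all of them ligand-like. The longest run is *grl-28*, *grl-29*, *grl-30* and *grl-31* on chromosome V (3551346 to 3557778), none with enough counts to test. *grd-13*, *grd-3* and *grd-10* follow each other on the plus strand of chromosome IV (3438312 to 3441841) and had log2 fold changes of −0.51, −0.49 and −0.57, none of which was called (edgeR adjusted p of 0.208, 0.176 and 0.139). *grd-14* and *grd-4*, 184 bp apart on the plus strand of chromosome X (8500021 to 8502288), had log2 fold changes of −0.42 and 0.89, neither of them called.

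Other genes around the pathway were set beside all genes tested, of which 13.7% were called, 8.85% lower and 4.81% higher. Of 8 export and sterol-sensing relatives, 2 were called lower and 0 higher (0 higher at an unadjusted p under 0.05 and by DESeq2). The median log2 fold change of the 8 was −0.35. Both called genes are NPC1-like genes of sterol transport. *ncr-1* had 29.4, 28.9 and 22.5 CPM in the labelled libraries and 39.5, 42.4 and 32.1 CPM in the L4440 libraries (log2 fold change −0.50, standard error 0.12, edgeR adjusted p = 0.0280). *ncr-2* had 2.16, 2.11 and 2.21 CPM in the labelled libraries and 3.91, 3.45 and 3.20 CPM in the L4440 libraries (log2 fold change −0.70, standard error 0.13, edgeR adjusted p = 0.00837). Neither overlapped between groups. Of 11 genes around the Gli-like factor *tra-1*, 1 was called, *fem-3*, which promotes the breakdown of TRA-1. *fem-3* had 83.7, 79.2 and 92.6 CPM in the labelled libraries and 71.1, 67.2 and 70.3 CPM in the L4440 libraries (log2 fold change 0.29, standard error 0.074, edgeR adjusted p = 0.0291). Of 6 lipidation and glypican relatives, 1 was called lower, the syndecan *sdn-1* (log2 fold change −0.26, standard error 0.060, edgeR adjusted p = 0.0204). These 4 calls became 1 without L4440 replicate 2, 2 without L4440 replicate 3 or labelled replicate 1, and 8 without labelled replicate 3. The share of all genes tested that was called lower also moved, to 3.27% without L4440 replicate 2 and 10.6% without labelled replicate 3.

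Genes of molting and of the precuticle matrix moved in the same direction as the members. The list was chosen with earlier results of these data known, so it gives no separate support. Of 17 tested, 11 were called lower (64.7%), next to 8.85% of all genes tested. All 17 had a log2 fold change below 0, next to 54.1% of all genes tested, and the median was −0.63. Their summed level was 384, 399 and 336 CPM in the labelled libraries and 603, 702 and 650 CPM in the L4440 libraries. *nhr-25*, a nuclear receptor of molting, had 10.4, 10.7 and 9.04 CPM in the labelled libraries and 18.1, 19.2 and 17.9 CPM in the L4440 libraries (log2 fold change −0.87, standard error 0.093, edgeR adjusted p = 0.000634). *nhr-23*, another nuclear receptor of molting, was not called (log2 fold change −0.02, standard error 0.10, edgeR adjusted p = 0.940), nor were the regulators *lin-42*, *myrf-1*, *bed-3* and *blmp-1*. With the length trend removed, 11 of the 17 were again called lower, next to 7.84% of all genes tested, with a median of −0.54.

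The marker lists of cell types did not all move alike. Next to 8.85% of all genes tested, 3 of 10 epidermis markers (*elt-1*, *elt-6* and *ceh-16*), 2 of 9 glia markers, 3 of 10 early embryo markers, 3 of 13 neuron markers and 1 of 5 pharynx muscle markers were called lower, while 1 epidermis marker, the adult cuticle collagen *col-19*, was called higher. Most markers in each of these lists were thus not called. The summed level of the epidermis markers was 252 to 299 CPM in the labelled libraries and 314 to 323 CPM in the L4440 libraries, that of the glia markers 122 to 142 CPM in the labelled and 167 to 174 CPM in the L4440 libraries, and that of the early embryo markers 89 to 97.7 CPM in the labelled and 111 to 121 CPM in the L4440 libraries. The neuron markers summed to 294 to 322 CPM in the labelled and 329 to 351 CPM in the L4440 libraries, and the pharynx muscle markers to 50.9 to 69.2 CPM in the labelled and 74.2 to 84.6 CPM in the L4440 libraries. None of these 5 sums overlapped between groups, while the oocyte and germline, intestine, sperm and body wall muscle sums did. Of all genes tested, 22.1% were lower without overlap, and no such share was computed for sums. The largest part of the epidermis, glia and neuron sums came from *lin-26*, *lit-1* and *snb-1*. These were not called (edgeR adjusted p of 0.28, 0.14 and 0.82). The largest part of the early embryo sum came from *sdz-28*, which was called lower. Of the 11 oocyte and germline markers, the 10 intestine markers and the 4 sperm markers tested, 0 were called in either direction by edgeR, with a median log2 fold change of 0.01 for the germline and −0.04 for the intestine list. In these lists, 2 intestine markers were higher and 0 other markers differed at an unadjusted p under 0.05, and DESeq2 called 1 intestine marker higher. At that unadjusted p, 14.3% of all genes tested were higher and 18.8% lower. Of 8 body wall muscle markers, 1 was called higher, next to 4.81% of all genes tested. At an unadjusted p under 0.05, 1 body wall muscle marker was higher and 2 were lower. No marker of these lists was at 0 in every library, and their part in the fold changes of the members was not tested.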

How the data were processed

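Poly(A) RNA of 6 whole-worm samples was sequenced with a stranded kit. Per the labels and the study's methods, the authors extracted reads with bcl2fastq 1.8.4, mapped them with TopHat2 2.1.0 to WBcel235 and counted uniquely mapped reads by strand with featureCounts 1.5.0. The deposited values are raw counts per gene. Reads of near-identical copies were not counted, which lowers such genes. The members and gene lists were chosen with earlier results of these data known. Counts were fitted with edgeR 4.0.16 (R 4.3.3; TMM, minimum count 10, minimum total 15, group as the only term), with Benjamini-Hochberg adjustment over all 15003 genes tested. The length alternative used a loess trend (span 0.5) on exon length per library. Alternatives were DESeq2 1.42.0, other scaling factors, other filters, a replicate block, the length trend and each library left out.

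Values in every library are given for called members, the most abundant and the most changed uncalled member of each prefix, *ptc-1*, *ptc-3* and *hog-1*; *wrt-1* and *ptr-13*, and the fold changes of *ptr-21* and of the *grd* neighbours, were added after their values were seen. Of the listed genes, 1 symbol was not found. The replicates come from independent experiments. Deviations of libraries with the same number correlated by 0.135, 0.0626 and 0.121, and those with different numbers by −0.146 to 0.0357. Every same-number value thus lay above every different-number value. The labels do not say that a number marks a shared experiment. The numbers were not taken as pairs in the fit as reported, and the replicate block is given as an alternative. No 2 libraries of one group agreed within sampling noise. Promoter sequences were not analysed here.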

Additional observations from a re-analysis of the deposited data

How the results depend on the processing

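The 8 members called lower ranged from 5 (without L4440 replicate 2) to 13 (without labelled replicate 3) when 1 library was left out, and the 1 member called higher from 0 to 2. The count called higher was 0 with DESeq2, which gave *grl-22* no adjusted p, 0 with at least 10 counts in every library, which *grl-22* lacks, and 5 with the length trend removed. The 3 ligand-like genes called lower became 6 with no filter and 5 with the replicate block, and ranged from 3 to 7 with 1 library left out. The share called lower of all genes tested moved as well, from 8.85% to 7.82% with no filter and 11.8% with the replicate block. It was 3.27% without L4440 replicate 2 and 10.6% without labelled replicate 3. The 1 ligand-like gene called higher was 0 with DESeq2 and 0 with at least 10 counts in every library, and ranged from 0 to 1. The 5 receptor-like genes called lower ranged from 2 to 6. The receptor-like genes called higher were 4 with the length trend removed and ranged from 0 to 1 with 1 library left out. The ligand-like median ranged from −0.55 to −0.23 and the receptor-like median from −0.22 to −0.10, and the receptor-like median was 0.032 with the length trend removed. The 4 other pathway genes called became 7 with no filter and ranged from 1 to 8. Other than where stated, the cause was not tested. Low counts limit the *grd* and *grl* genes most, and 21 members could not be tested.

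With the replicate block, 11 members were called lower (11.8% of all genes tested), among them *wrt-6* (adjusted p = 0.0467), *ptr-10* (adjusted p = 0.0382) and *grl-16* (adjusted p = 0.0207), which the fit without it did not call. The uncalled *ptc-1* (0.002) had a log2 fold change of −0.032 with upper-quartile factors, −0.001 with at least 10 counts in every library and −0.009 with the replicate block, and −0.06 to 0.13 with 1 library left out. The uncalled *grd-5* (−0.06) ranged from −0.28 to 0.16 with 1 library left out, and the uncalled *ptc-3* (−0.15) was 0.148 with the length trend removed. The tallies that follow cover counts, medians and only some single genes under 13 alternatives. These genes are the called members, the most abundant and the most changed uncalled member of each prefix, *ptc-1*, *ptc-3* and *hog-1*. In this set, *ptc-1*, *grd-5*, *ptc-3* and the receptor-like median made 11 changes of sign. Counted once per gene and alternative, calls of genes in the set were lost 10 times and gained 10 times. Calls gained by other members, such as *grl-16*, *ptr-13* and *ptr-21*, are not in these tallies. The calls lost were those of *grl-22*, *ptr-3*, *ptr-4* and *ptr-25*. Counts or medians moved 30 times, and 335 values did none of these. The latter include the median of all genes tested (−0.028), although it was 0.003 with DESeq2 and 0.047 with the length trend removed.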
